A study of Homo sapiens with 2 samples.

Results

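The USP17L genes form a tandem array on the short arm of chromosome 4, and CREB ChIP peaks were called across it in NGP neuroblastoma cells. Its members were the peaks of the deposited list between positions 9000000 and 10000000 of chromosome 4 (hg38), together with the rows of the authors' peak-to-gene table whose symbol starts with USP17L. These were 45 of the 5285 peaks of the list and 22 of the 2495 symbols of the table. The members were chosen by having been called as peaks in this library, at the authors' q, so their folds and q are given as a description, with no test. Every one of the 45 peaks lay between positions 9218212 and 9368379, within the stretch of 23 annotated USP17L genes and pseudogenes, and none of the 37 other RefSeq genes of the window was overlapped. The nearest peak before the window lay 747 kb ahead of the first of the 45, with a fold of 4.82 and 5 fragments. The nearest peak after the window lay 1382 kb past the last of the 45, with a fold of 4.01 and 4 fragments.

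USP17L genes encode deubiquitinases of the USP17 (DUB) family, cysteine proteases that take ubiquitin off other proteins. The family is known as cytokine-inducible in blood cells, and its best studied human member, USP17L2 (DUB3), acts on the cell-cycle phosphatase CDC25A. The genes have no introns, and each sits in 1 unit of a repeat known as RS447, an older name that RefSeq lists for USP17L9P. CREB is a transcription factor of the cAMP and calcium pathways that binds cAMP response elements, most often close to gene starts.

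The study mapped CREB binding in NGP, a long-established line of human neuroblastoma cells, to find genes downstream of the kinase-family protein CAMKV, per the series' design text. It holds 1 CREB ChIP library and 1 input library, which is DNA of the same cell line without immunoprecipitation. The labels name no treatment or genetic change for either, and the cells were grown with 20% fetal bovine serum and harvested at 80 to 90% confluency. Peaks were called on the ChIP library, there is no replicate, and the spread between cultures is unknown.

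The annotation shows a tandem array. On chromosome 4, RefSeq places 19 protein-coding USP17L genes and 4 pseudogenes, all on the plus strand where the authors' table gives one. Their starts followed each other at a median of 4746 bp, and 18 of the 21 spacings within the array lay within 4 bp of it. The others were 4847 and 4647 bp, on the 2 sides of USP17L16P, and 4751 bp, between USP17L17 and USP17L18. Of the 23 models, 20 were 1593 bp long, and all 29 USP17L models of the genome have lengths that are multiples of 3. Coding sequence without untranslated ends has lengths of this kind, but such a length does not show that a model is only coding sequence. A gene start here is taken as the start of the model, and its distance to the transcription start is not known. The array is annotated in 2 blocks, USP17L10 to USP17L22 with 13 models and USP17L24 to USP17L6P with 10. Between them, from 9269212 to 9325164, RefSeq lists no gene, and neighbouring summits on the 2 sides lay 51496 bp apart. No genome sequence was at hand, so whether the build holds sequence over all of this stretch was not examined.

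**Figure D1:**
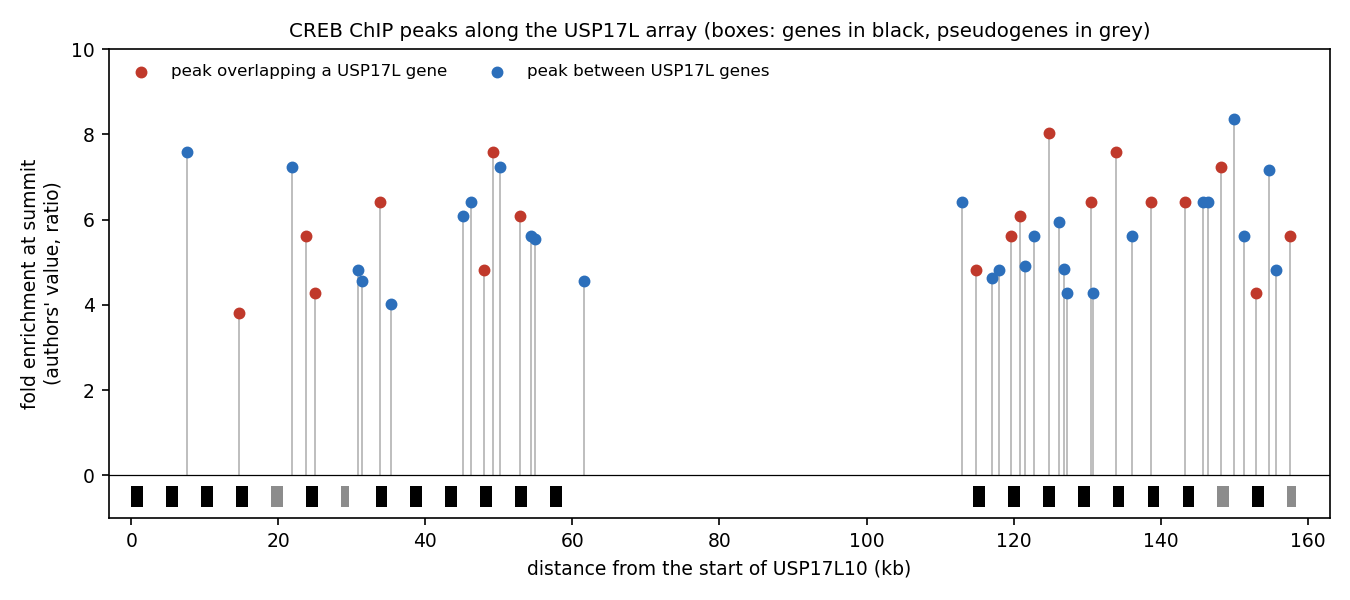
Fold enrichment at the summit of each of the 45 peaks (vertical axis, authors' ratio) against distance from the start of USP17L10 in kb, with annotated genes as black and pseudogenes as grey boxes. Peaks occupy both gene blocks, with folds from 3.80 to 8.36, and are closer together in the second block.

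The array was among the densest stretches of the list. Its 45 peaks made up 18.2% of the 247 peaks of chromosome 4, where the next fullest 1 Mb window held 44, at 49 Mb. Of 1265 windows of 1 Mb with any peak on chromosomes 1 to 22 and X, 22 held more peaks, and the median window held 1. The 2 blocks were not equally filled. The second block carried 27 peaks, or 5.50 per 10 kb, with 23.3% of its length under peaks. The first block carried 18, or 2.92 per 10 kb, with 10.6% under peaks. Lengths run from the first gene or peak of a block to 1 median unit past its last gene start. Every unit of the second block held a peak, at a mean of 2.60 ± 1.07 per unit (SD over 10 units), against 1.38 ± 1.04 in the first block (SD over 13 units), where USP17L10, USP17L12 and USP17L18 held none. The remaining peak of the second block lay ahead of USP17L24 and was placed in the unit by counting back 1 unit from that gene. Units are near-identical copies of 1 sequence, so they are not replicates and no test was made between the blocks. How reads that match several copies were placed is unknown, and its part in the difference between the blocks was not tested.

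Enrichment at single peaks was modest and close to that of the list. Array peaks had a median fold of 5.62 (quartiles 4.82 to 6.42) and the rest of the list 5.23 (4.46 to 6.42). The highest array fold, 8.36, ranked 426 of 5285. A fold of 10 was reached by 0 of 45 array peaks and by 4.09% of the whole list. With peaks counted as independent, which those of near-identical copies are not, the 0 allows a share of up to 6.67%. The median −log10 q was 4.11 in the array and 3.50 in the rest of the list, and 17 array peaks (37.8%) had a −log10 q of at least 5, against 30.3% of the whole list. Array peaks were wider, with a median of 326 bp against 236 bp in the rest of the list, a width that 33 of the 45 exceeded. Both blocks had a median fold of 5.62.

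The number of fragments behind each summit was recovered from its deposited fold and p. Array summits held 4 to 10 fragments with a median of 7, and summits of the rest of the list a median of 6. The middle of that range was fuller in the array: 26 of its 45 peaks held 6 or 7 fragments, 2 held 4, and none held 11 or more. Of the rest of the list, 15.9% of peaks held 4 fragments and 17.4% held 11 or more. The 45 summits together held 297 fragments, 182 in the second block and 115 in the first. The expected background was 0.246 fragments, the lowest and commonest value of the list, at 25 array peaks (55.6%), against 31.1% of the rest of the list. At those 25 peaks the folds differ by fragment count alone. The highest background in the array was 0.632. For the strongest peak, at 10 fragments, the exact 95% Poisson interval runs from 4.80 to 18.4, and for a peak with 5 fragments from 1.62 to 11.7. These intervals overlap, so the order of single peaks in the array is not resolved at this depth. They do not allow for selection: summits are maxima of called peaks, and none in the list held under 4 fragments.

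**Figure D2:**
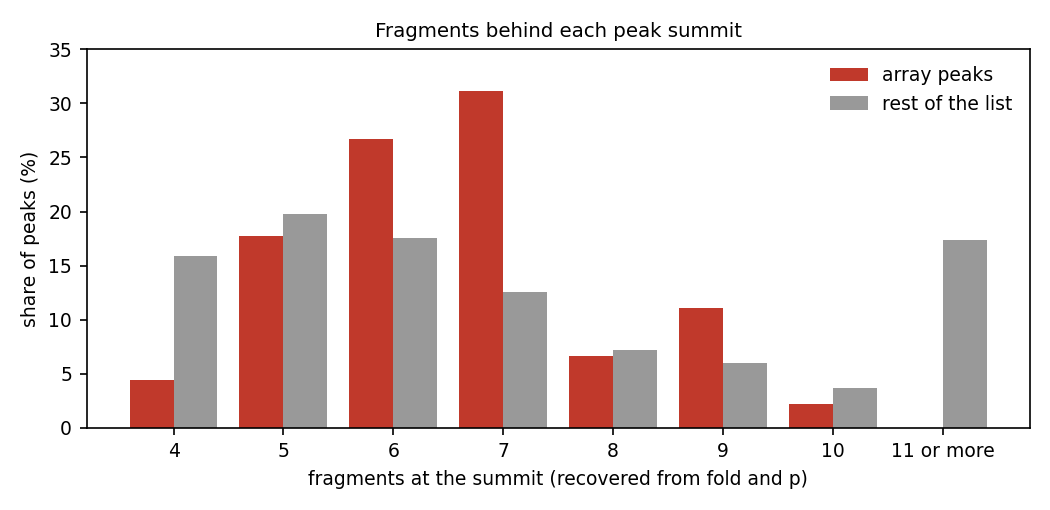
Share of peaks in percent by the number of fragments at the summit, for array peaks (red, 45) and the rest of the list (grey, 5240). Array peaks gather at 6 and 7 fragments, and none reaches 11.

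Set on a common scale, the peaks fell at recurring places in the repeat unit. Each summit was placed by its distance from the start of the gene that opens its unit, and summits were split wherever neighbours in that order were over 300 bp apart, counting from the gene start and without joining the ends of the unit. This gave 3 larger groups, with 40 of the 45 summits (88.9%), that spanned 38.2% of the unit. The grouping was chosen after the positions were seen, so it describes them and is no test. Were the ends joined, the summit at 4577 bp, 248 bp before the place of the next one, would fall in the first group. Summits of the first group lay inside the annotated gene, those of the other larger groups in the spacer between genes. A summit outside the larger groups, at 1267 bp in USP17L15, also lay inside its gene. As a share, 15 of 45 summits (33.3%) lay inside a gene, and a gene of 1593 bp takes up 33.6% of a unit.

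The first group lay in the 5′ part of the annotated gene. It held 14 summits in 14 units, 79 to 781 bp after the gene start with a median of 424 bp, and had folds of 3.80 to 8.03. Within it, the summits of USP17L28, USP17L24, USP17L25, USP17L27 and USP17L9P lay at 407, 409, 410, 419 and 429 bp. The next summit in order, that of USP17L13 in the first block, lay at 445 bp. The 5 summits at 407 to 429 bp were picked for lying close together. All are in the second block, whose other summits of this group lay at 330, 349, 531 and 781 bp. Peak coverage of the unit was highest here: 13 units had a peak over the positions 401 to 505 bp after the start.

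The largest group lay in the spacer beyond the gene. It held 18 summits in 15 units, 2088 to 2895 bp after the gene start, with folds of 4.01 to 8.36 and 9 summits in each block. The strongest array peak belongs here, in the unit of USP17L9P at 2213 bp, and the peak of the next unit, USP17L30, had its summit at 2221 bp with a fold of 7.17. The spacer peaks of USP17L11 and USP17L14P, each the only peak of its unit, began 2807 and 2808 bp after the start and had folds of 7.60 and 7.22. A further group of 8 summits lay at 3268 to 3568 bp, with folds of 4.29 to 6.42, and 7 of the 8 were in the second block. Units that held a summit of all 3 larger groups numbered 6, and all 6 were in the second block.

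Few summits lay elsewhere. The 3 summits at 1670 to 1730 bp, just past the end of the annotated gene, were those of USP17L25, USP17L20 and USP17L5. The peaks of USP17L25 and USP17L5 had the same edges in the unit, 1578 and 1832 bp, with folds of 6.08 and 6.42. USP17L15 alone had a summit at 1267 bp, and the unit of USP17L22 alone at 4577 bp. That last summit lies 169 bp before the next unit position, where no gene is annotated. Of the 45 summits, 0 lay in the 1 kb before an annotated USP17L start, while 5 peaks reached into that 1 kb with an edge. With summits counted as independent, which those of near-identical copies are not, the 0 allows a share of up to 6.67%. That 1 kb is part of a median unit of 4746 bp, of which each 500 bp takes up 10.5%. The share of the whole list's summits in the 1 kb before a gene start was not counted. The longest stretch of the unit with no peak in any copy ran over 788 bp, from 960 to 173 bp ahead of the next gene start, and is 16.6% of the unit. In all, 26.1% of unit positions lay under no peak. How the authors treated reads that match several copies is not given in the sources used here, and its part in this pattern was not tested.

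**Figure D3:**
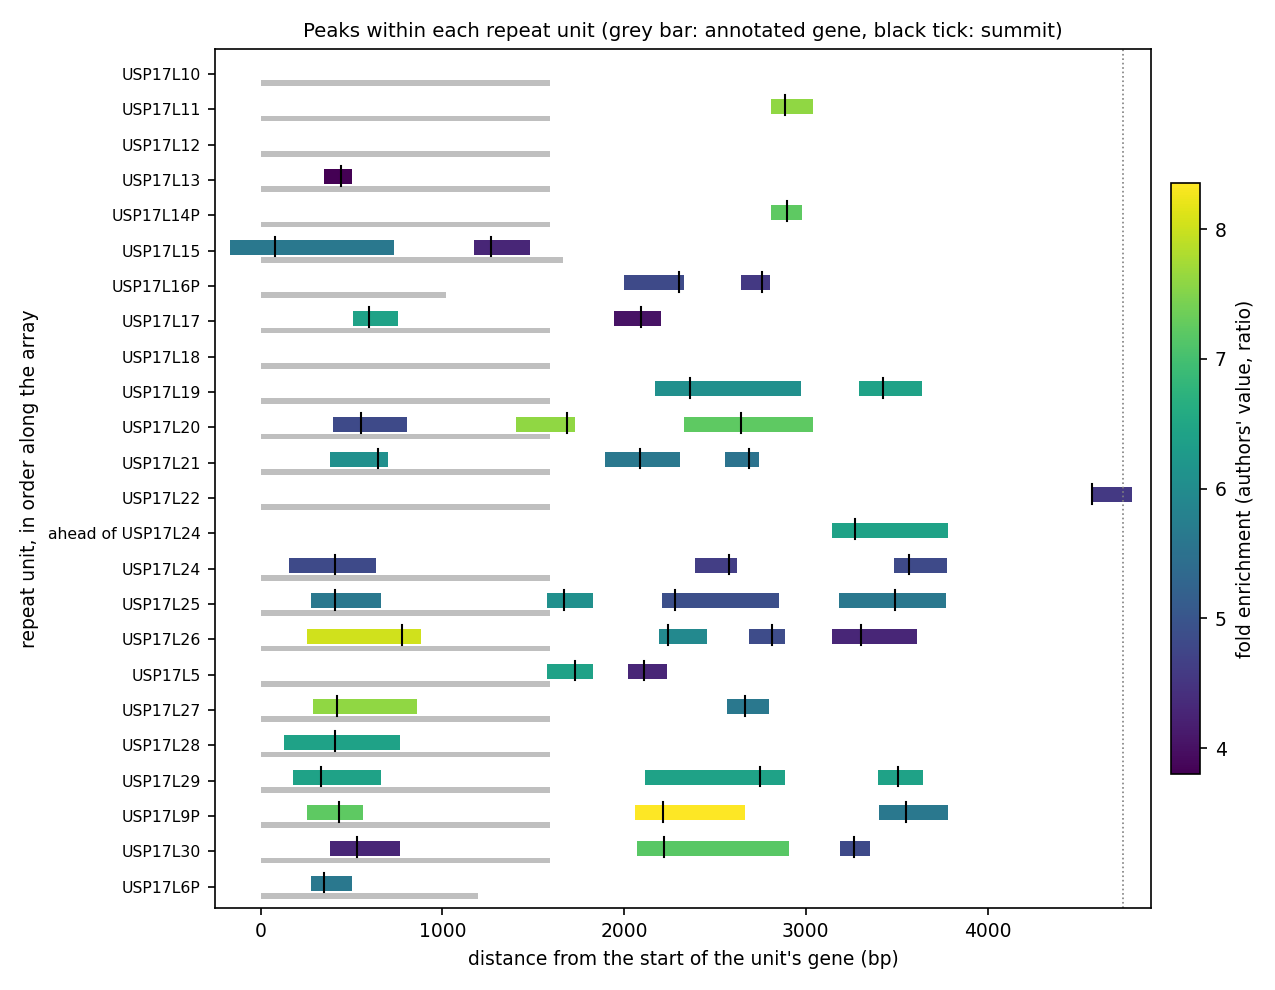
Peaks of each repeat unit, 1 row per unit in array order, against distance from the gene start in bp; bars are peaks coloured by fold, black ticks summits, grey bars annotated genes and the dotted line the median unit length. Summits stack at 79 to 781, 2088 to 2895 and 3268 to 3568 bp. The stacks at 79 to 781 and 3268 to 3568 bp lie mostly in the lower rows, which are the second block. That at 2088 to 2895 bp has 9 summits in each block.

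**Figure D4:**
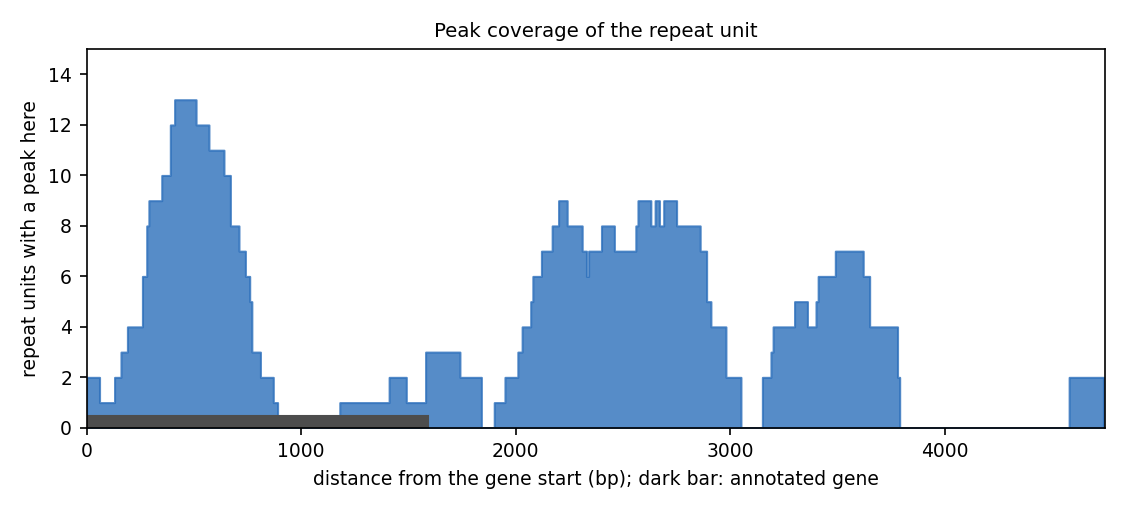
Number of repeat units with a peak over each position of the unit, by distance from the gene start in bp. Coverage reaches 13 units at 401 to 505 bp and is 0 from 3786 to 4573 bp.

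Genes of the array were overlapped by 18 peaks, at 15 of the 23. Among the protein-coding ones, 13 of 19 were overlapped (68.4%). Over all protein-coding genes the share was 4.18%, and over those of 1 to 2.5 kb, a length like that of USP17L, it was 2.34%. Of the 25 such short genes with a peak, 13 were USP17L genes. The other 12 were among 1042 short genes outside the family (1.15%). The rule chose this stretch for its peaks, so these shares are set side by side without a test.

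In the first block 5 of 13 genes were overlapped. USP17L13, at 9224896 to 9226488, carried the weakest array peak, with a fold of 3.80, a −log10 q of 1.48 and 4 fragments. That q is close to the lowest of the whole list, 1.32. USP17L15, the longest model of chromosome 4 at 1662 bp, carried 2 peaks with folds of 5.62 and 4.29, and the wider of them, 903 bp, was the only peak to reach across a gene start from 169 bp before it. USP17L17 had a fold of 6.42 with 7 fragments, its summit 595 bp into the gene. USP17L20 carried 2 peaks, a weaker one inside the gene with a fold of 4.82 and a stronger one across the gene's end with 7.60. Its unit as a whole held 3 peaks, whose summits together held 22 fragments (95% interval 13.8 to 33.3), the highest such sum of this block. Sums of this kind add the counts at single summits and leave out the rest of the unit. USP17L21 had a fold of 6.08, and 2 more peaks in its spacer at 5.62 and 5.54.

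In the second block 10 of 10 were overlapped. USP17L24 spans 9325165 to 9326757, and its gene peak held 5 fragments at a fold of 4.82. USP17L26 carried the strongest peak inside a gene of the array, with a fold of 8.03, a −log10 q of 8.42 and 9 fragments (4.12 to 17.1). Its unit held 4 peaks, whose summits together held 28 fragments (18.6 to 40.5), the highest such sum of all units. The 4 peaks of the USP17L25 unit together held 26 at their summits (17.0 to 38.1), and these intervals overlap. USP17L27 had a fold of 7.60, and USP17L28, USP17L29 and USP17L5 each had 6.42. The USP17L5 peak overlapped only the last 15 bp of the gene. USP17L30 had the weakest gene peak here, with a fold of 4.29, although the spacer peak of its unit reached 7.17.

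Pseudogenes of the array were marked as well. USP17L9P, a transcribed pseudogene, had a fold of 7.22 inside the gene, 8.36 in the spacer and 5.62 further on. The summits of its unit together held 24 fragments (15.4 to 35.7). USP17L6P, the last model and only 1197 bp long, had 1 peak with a fold of 5.62. USP17L14P and USP17L16P were not overlapped themselves, but their units held 1 spacer peak at 7.22 and 2 at 4.82 and 4.56. Reads of near-identical copies cannot be assigned to 1 copy with confidence, so a value given for a named gene is that of its annotated place.

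The authors' table, which pairs peaks with gene starts within 50 kb, gave USP17L symbols 457 of its 4780 rows (9.56%). Each of the 10 symbols of the second block was paired with the same 27 peaks. For 11 of the 21 symbols of chromosome 4, the start in the table was that of another copy. USP17L5, USP17L30 and USP17L25 to USP17L29 were all given the start of USP17L24, up to 38.0 kb from their RefSeq place. USP17L18 and USP17L20 were given that of USP17L11, USP17L21 that of USP17L12 and USP17L22 that of USP17L20, up to 42.7 kb away. The 21 symbols thus had 11 distinct starts. RefSeq lists USP17L25 to USP17L30 also as synonyms of USP17L24. A summit lay within 1 kb of the table's start for 14 of the 21 symbols, but as 8 of these share the USP17L24 start, they rest on 7 of the 11 distinct starts. Among the 19 protein-coding symbols 12 had one, and of all protein-coding genes 1.33%. Counted from their own RefSeq starts 14 of the 21 also had one, but 11 of the starts differ, so the 2 counts do not rest on the same pairs. With RefSeq starts for all 23 models, the array would give 497 pairs within 50 kb, against 456 in the table. Beside the USP17L symbols, the table paired the array with FAM90A26, a protein-coding gene 45.0 kb before the first peak.

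**Figure D5:**
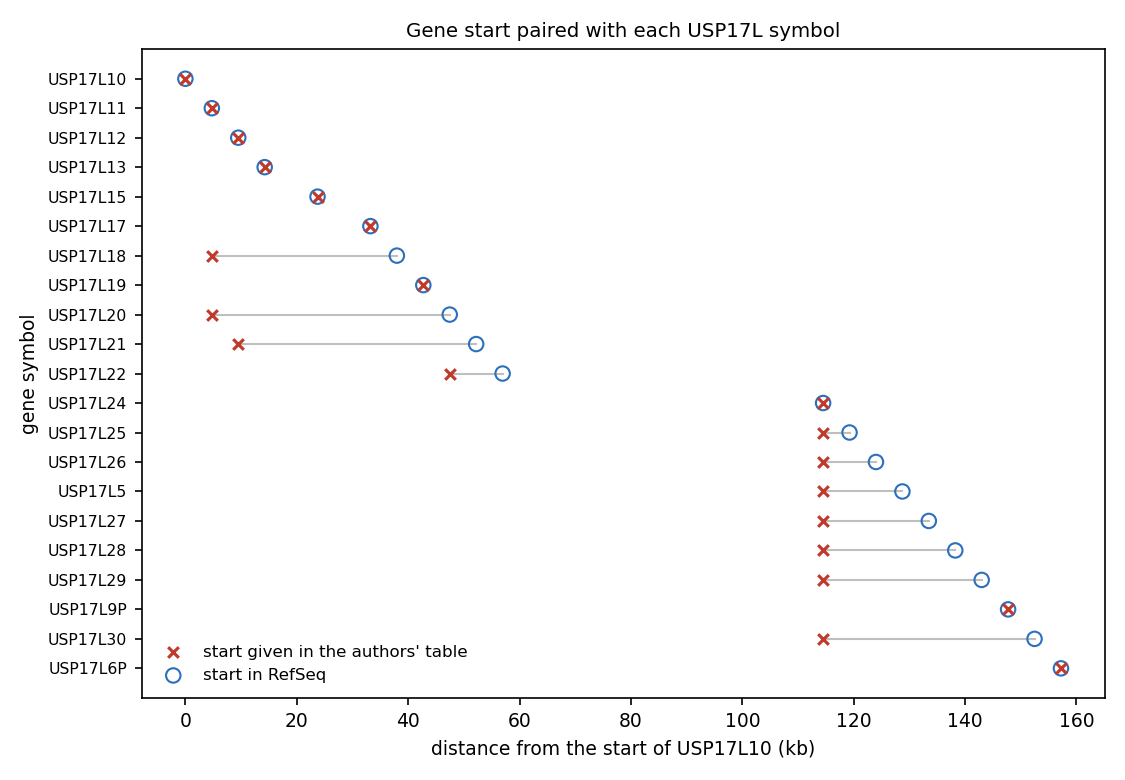
Start given in the authors' table (red crosses) and in RefSeq (blue circles) for the 21 USP17L symbols of chromosome 4, by distance from the start of USP17L10 in kb. A grey line joins the 2 where they differ, as they do for 11 symbols.

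RefSeq places 6 further USP17L genes on chromosome 8, USP17L2 among them, and 0 of these 6 were overlapped. Of 1042 protein-coding genes of 1 to 2.5 kb outside the family, 1.15% were overlapped. A count of 0 among 6 thus does not set these copies apart from other genes. Their nearest summits lay 42.8 to 687 kb from the lower coordinate of their models, which is the 3′ end of a model on the minus strand. The table paired only USP17L8 of these, on the minus strand, with a peak, at 46.0 kb from the start it gives and with a fold of 4.29.

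Other multicopy families were set beside the array. Of 20 such families, 12 had no overlapped gene, among them FAM90A with 28 genes and DEFB, the beta-defensins, with 57, which both also neighbour the array on chromosome 4. USP17L had 15 of 29 genes overlapped, at a median fold of 6.08. REXO1L, a family of exonuclease-like genes, came closest by share among the families other than ribosomal RNA, with 5 of 11 overlapped by 6 peaks and a median fold of 4.75. DUX4L, the double-homeobox genes of the D4Z4 repeat, had 12 of 46 genes overlapped by 13 peaks with a median fold of 6.42, and the background there was 0.246 fragments at the median, as at the USP17L gene peaks. The 45S ribosomal RNA units had 3 of 4 genes overlapped (75%), a larger share than the 51.7% of USP17L, at a median fold of 9.12 over a background of 0.819. Per 100 kb of annotated gene, USP17L had 39.0 peaks, fewer than REXO1L with 57.5 and the 45S units with 56.2. NBPF had 4 of 23 genes overlapped, at a median fold of 4.82.

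A few deubiquitinase genes elsewhere carried peaks. Of 52 USP-family genes outside USP17L, 4 were overlapped (7.69%) and 1 had a summit within 1 kb of its start (1.92%), beside 4.18% and 1.33% of all protein-coding genes. These genes are long, with a median of 66.6 kb. USP16, a histone H2A deubiquitinase, had its summit 200 bp after the start with a fold of 6.08 and 7 fragments (2.81 to 14.4). USP7, which acts on MDM2 and p53, had a peak within the gene with a fold of 5.32, USP46 one with 5.51 and USP32 one with 4.65. Among 39 deubiquitinases of other classes, only STAMBP, an endosomal enzyme of the JAMM class, was overlapped (2.56%, beside the same 4.18%). Its peak was stronger than any in the array, with a fold of 12.0 and 15 fragments (8.40 to 24.7), 81 bp after the start. Of 10 genes whose proteins are reported substrates of USP17 enzymes, CDC25A among them, 0 were overlapped. With 4.18% of all protein-coding genes overlapped, a count of 0 among 10 does not set these genes apart.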

How the data were processed

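One CREB ChIP library of NGP cells was analysed through its peak list and its peak-to-gene table; the input has no file of its own here. Bowtie2, MACS2 and build hg38 are named in the submitters' processing notes. Their versions and settings, and how duplicate or multiply matching reads were handled, were not given in the sources used here. The deposited peak list holds the authors' fold enrichment (a ratio), −log10 p-value and −log10 q-value at each summit, and a score; the table deposited by the authors repeats that score. Gene places were taken from RefSeq GRCh38.p14, the same build. Fragments per summit were solved from fold, (fragments + 1) / (background + 1), and p, a Poisson tail, by a search over whole numbers. The best whole number met the deposited −log10 p within 0.001 in 5285 of 5285 peaks (or within 1e-05 of the value itself where −log10 p exceeded 100). This step was tested on data simulated with the same formulas, which checks the solving and not the formulas. Intervals are exact Poisson intervals at 95%. They and limits from a count of 0 (3 counts of the total) cover counting error only. The Poisson intervals, also those on sums over a unit, do not allow for summits being maxima of called peaks. An overlap is at least 1 bp. Total read depth is unknown. With 1 library no test was made. Members, gene lists and groups were chosen with earlier results of these data known. All USP17L genes with a peak or a table row, and list genes with a peak, could be named. The planned motif search at USP17L promoters was not run. Python 3.11.15, numpy 2.4.6, pandas 2.3.3 and scipy 1.17.1 were used.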

Additional observations from a re-analysis of the deposited data

How the results depend on the processing

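No paired analysis was possible because the series has 1 ChIP library and no replicate to pair or leave out. Under a −log10 q of at least 5, 17 of the 45 array peaks were left, 8 peaks overlapped a USP17L gene and 8 genes were overlapped, the median fold was 7.17 and the median summit held 8 fragments; each follows from keeping fewer, stronger peaks. A fold of at least 5 left 29 peaks. Within 1 kb of the table's start, 14 USP17L symbols had a summit in place of 22. Measured from the table's own starts, the median distance of a summit from the nearest start before it was 6836 bp in place of 2221 bp, since the table gives several symbols 1 start. Counts moved by under 1.5 times with a −log10 q of at least 2, when most of the peak, or its summit, had to lie inside the gene, and for the stretch from the first to the last USP17L gene. The median place in the unit was 2326 bp from peak centres and 2213 bp at a −log10 q of at least 5; shifting the USP17L16P start, an alternative chosen after seeing the data, left it at 2221 bp. With 4 to 10 fragments per summit, single peaks of the array cannot be ranked.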

Other observations

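The small number of fragments makes the deposited values fall on few levels. The 45 array peaks took 19 distinct folds, and 8 peaks shared a fold of 6.42, which is 7 fragments over a background of 0.246. A further 7 peaks shared 5.62 (6 fragments) and 5 shared 4.82 (5 fragments). Equal folds at different copies are thus equal fragment counts and carry no further information on likeness between copies.

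The places of the USP17L16P peaks depend on its model. That pseudogene is annotated over 1023 bp, and its start lies 4847 bp after that of USP17L15 and 4647 bp before that of USP17L17, so its summits at 2301 and 2759 bp are counted from a later point of the unit than those of the other copies.

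Sequences given as alternatives of chromosome 4 held 4 further peaks, with folds of 4.01, 6.42, 16.9 and 4.01. Whether they hold USP17L copies was not examined.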
